A study of Mus musculus with 7 samples.

Results

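This account concerns 33 genes that mark neutrophils and blood monocytes, followed across 7 arrays of sorted brain cells. Members were found by gene symbol in the array annotation, and a gene with several probe sets was represented by the brightest. The annotation named a probe set for 32 of the 33, among 19505 named genes, and each of the 32 had a single probe set. Ly6g, a surface antigen used to sort mouse neutrophils, was the member without a named probe set, and it has no value here. Of the 32 measured members, 19 were neutrophil markers and 13 were monocyte markers. The arrays held RNA from cells sorted as live, CD45 positive and CD11b positive from the brains of C57BL/6 mice with the 5xFAD transgenes, a model of amyloid plaque disease. Both groups carried 5xFAD, and they differed in B2m, which encodes the light chain of MHC class I. There were 3 arrays of genotype 5xFAD;B2m+/+ (wildtype) and 4 of genotype 5xFAD;B2m–/– (knockout). The labels give no age, sex, litter, perfusion or number of mice per sample. Whether each array stands for its own animal is not stated, and the p-values here reflect array-to-array spread that may be partly or wholly technical.

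CD45 and CD11b are carried by microglia, and also by neutrophils and monocytes, so a gate on both can take in blood myeloid cells that lie in vessels or have entered the tissue. Neutrophils build their granules in sequence during maturation in the bone marrow. Primary granules, with myeloperoxidase and serine proteases, come first, then secondary granules with lactoferrin, then gelatinase granules, and receptors for chemokines appear last. Classical monocytes express Ccr2 and Ly6c2 and enter inflamed tissue, where they can become macrophages. Values are log2 expression after RMA, the authors' normalization. Differences are knockout minus wildtype on that scale, with a standard error (SE) from limma.

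The targeted gene followed the labels. B2m was 13.42, 13.41 and 13.39 on the wildtype arrays, against 10.40, 10.56, 10.47 and 10.24 on the knockout arrays (difference -2.99, SE 0.10, limma adjusted p = 1.54e-07). Markers of microglia were high and even. All 13 measured of 14 listed, among them P2ry12, Csf1r, Sparc and Slc2a5, lay on each array above a background line, and their mean level ran from 12.40 to 12.48 across wildtype and from 12.39 to 12.50 across knockout arrays. The background line is the level that 95% of negative control probe sets do not exceed (9.35 to 9.55, by array), and serves as a rough guide. The sort markers Ptprc (CD45) and Itgam (CD11b) varied over the 7 arrays by at most 0.40. Lymphocyte markers were near background: none of 6 T cell, 6 natural killer cell and 4 B cell markers measured reached that line on any array. Knockout replicate 4 stood apart in the members, as described next, and differences without it are given beside the results. In RNA from a pool of sorted cells, fewer cells of a type and less RNA per cell cannot be told apart.

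Neutrophil members varied together between arrays, within both genotypes. Knockout replicate 4 had the highest value for 15 of 19 neutrophil members and 12 of 13 monocyte members, against 15.1% of all named genes and 21.3% of the 10004 genes bright enough to be tested. It had the lowest value for 0 of the 32 members, and for 25.6% of all named genes and 16.5% of the tested genes. The 21.3% and the 25.6% were each the largest such share of any array. The median deviation of the neutrophil members from their own means over the 7 arrays was 1.16 in knockout replicate 4 and 0.37 in knockout replicate 3. Wildtype replicate 2 followed at 0.16 and knockout replicate 2 at -0.03. Wildtype replicates 1 and 3 were at -0.30 and -0.54, and knockout replicate 1 was lowest at -0.61. By this median the arrays at both ends were knockout arrays, and wildtype arrays lay between them. The low end was close: knockout replicate 1 and wildtype replicate 1 were each lowest for 7 of the 19 neutrophil members. The range over 7 arrays had a median of 2.06 for neutrophil members and 1.27 for monocyte members, against 0.46 for all named genes.

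**Figure D1:**
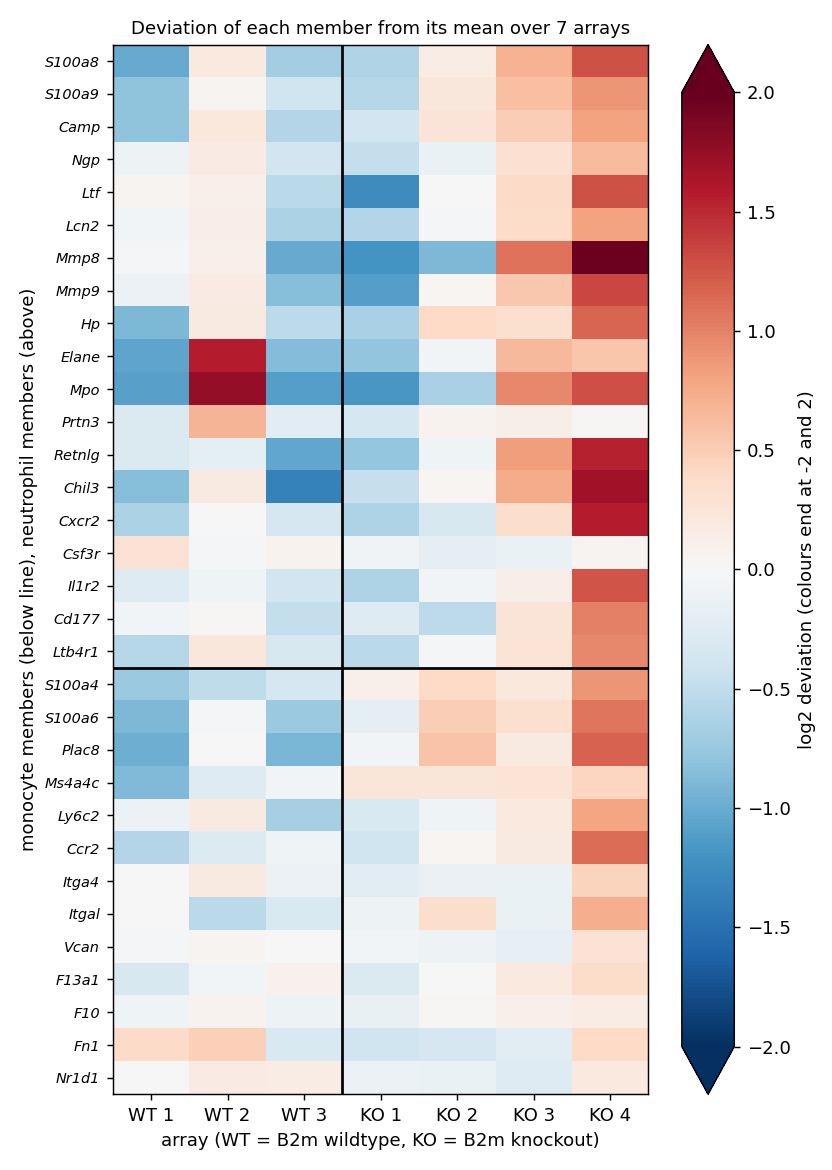
Each row is 1 of the 32 measured members and each column 1 array, 3 wildtype (WT) and 4 knockout (KO); colour is the log2 deviation from the gene's mean over the 7 arrays. Of 19 neutrophil rows 15 are reddest in KO 4, while Elane, Mpo and Prtn3 are reddest in WT 2 and Csf3r is nearly flat.

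Neutrophil genes that were not members were also highest, for the most part, in knockout replicate 4. Of 28 such genes listed, 23 were measured, and knockout replicate 4 was highest for 17 of them, against 15.1% of all named genes. These genes were listed with earlier results of these data known, and are no separate support for the member pattern. Many were dim: 14 of the 23 lay above the background line on no array, and 2 lay above it on all arrays. Their median deviation was 0.81 in knockout replicate 4 and 0.10 in knockout replicate 3, and lowest in knockout replicate 1 at -0.36. Wfdc21, a small secreted protein of the whey acidic family, was 10.18, 11.27 and 10.42 on the wildtype arrays, against 10.54, 11.29, 11.76 and 12.17 on the knockout arrays. Trem1, an activating receptor of neutrophils and monocytes, was 9.45, 10.01 and 9.01 on the wildtype arrays, against 9.07, 9.87, 10.19 and 11.46 on the knockout arrays. Both genes were highest in knockout replicates 4 and 3, and their genotypes overlapped.

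**Figure D2:**
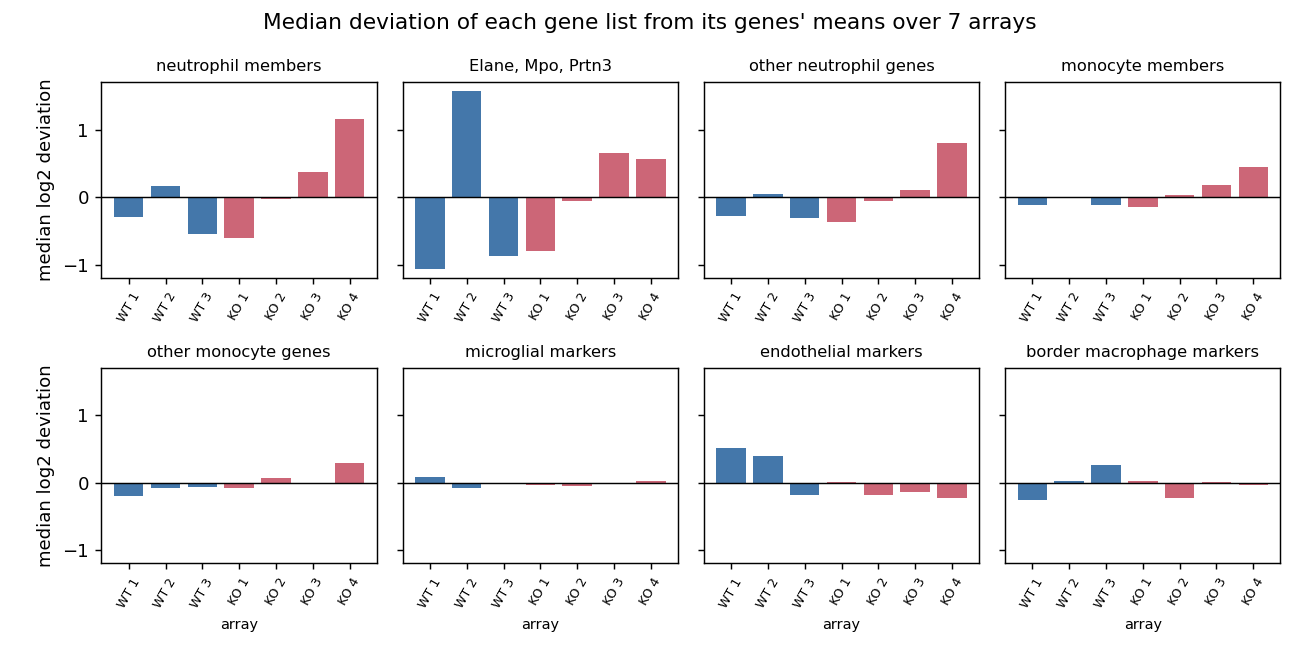
Bars give, for each array (wildtype blue, knockout red), the median log2 deviation of a gene list from its genes' means over the 7 arrays. Neutrophil members reach 1.16 in KO 4, Elane, Mpo and Prtn3 reach 1.57 in WT 2, microglial markers stay between -0.07 and 0.08, and endothelial markers are highest in WT 1 and WT 2.

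S100a8 and S100a9 encode the subunits of calprotectin, the most abundant cytosolic protein of neutrophils, and sit next to each other in gene order on chromosome 3. S100a8 was 10.16, 11.37 and 10.47 on the wildtype arrays, against 10.56, 11.31, 11.87 and 12.44 on the knockout arrays. S100a9 was 10.47, 11.33 and 10.87 on the wildtype arrays, against 10.70, 11.50, 11.87 and 12.16 on the knockout arrays. In both genes wildtype replicate 2 lay among the knockout arrays and knockout replicate 1 among the wildtype arrays. The genotype difference was 0.88 (SE 0.40, limma adjusted p = 0.424) for S100a8 and 0.66 (SE 0.31, limma adjusted p = 0.432) for S100a9, and without knockout replicate 4 it was 0.58 for S100a8 and 0.46 for S100a9. All values of both genes lay above at least 97.8% of the negative control probe sets.

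Camp, Ngp, Ltf, Lcn2, Mmp8, Mmp9 and Hp, whose products are stored in granules, were highest in knockout replicate 4. Camp, which encodes the antimicrobial cathelicidin, was 11.09, 12.11 and 11.32 on the wildtype arrays, against 11.52, 12.15, 12.39 and 12.71 on the knockout arrays (difference 0.68, SE 0.29, limma adjusted p = 0.400). Ngp, a granule protein related to cathelicidins, was 12.49, 12.75 and 12.21 on the wildtype arrays, against 12.12, 12.46, 12.90 and 13.22 on the knockout arrays. Ltf, the iron-binding lactoferrin, was 10.02, 10.06 and 9.43 on the wildtype arrays, against 8.71, 9.96, 10.34 and 11.23 on the knockout arrays. Knockout replicate 1 had the lowest value of both Ngp and Ltf, and knockout replicate 4 the highest. Lcn2, lipocalin-2, which binds bacterial siderophores, was 12.21, 12.40 and 11.63 on the wildtype arrays, against 11.68, 12.24, 12.64 and 13.08 on the knockout arrays. Mmp8, the neutrophil collagenase, had the largest range of the members at 3.16, with 8.93, 9.06 and 7.95 on the wildtype arrays, against 7.76, 8.06, 10.05 and 10.92 on the knockout arrays. Its difference was 0.55 (SE 0.67, limma adjusted p = 0.780), and it was -0.02 without knockout replicate 4 and -0.74 without knockout replicates 3 and 4. Mmp9, gelatinase B, and Hp, haptoglobin, which binds free haemoglobin, spanned 7.83 to 10.27 and 7.96 to 10.02 over the 7 arrays, both highest in knockout replicate 4. The differences of Ngp, Ltf, Lcn2, Mmp9 and Hp were 0.195, 0.22, 0.33, 0.47 and 0.72, with limma adjusted p from 0.472 to 0.881. Without knockout replicate 4 they were 0.015, -0.17, 0.10, 0.094 and 0.44, and Camp was 0.51. Genotypes overlapped for all 7 of these genes, and for Mmp8, Mmp9 and Hp at most 2 arrays lay above the background line.

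Elane, Mpo and Prtn3, which encode the primary granule proteins neutrophil elastase, myeloperoxidase and proteinase 3, had another array highest than most neutrophil members. Elane was 7.83, 10.46 and 8.02 on the wildtype arrays, against 8.10, 8.84, 9.54 and 9.45 on the knockout arrays. Mpo was 7.01, 9.85 and 6.99 on the wildtype arrays, against 6.93, 7.44, 9.06 and 9.38 on the knockout arrays. Prtn3 was 8.82, 9.79 and 8.89 on the wildtype arrays, against 8.76, 9.18, 9.23 and 9.14 on the knockout arrays. Wildtype replicate 2 was highest for all 3, and knockout replicate 4 did not exceed it for any of them, whereas it exceeded all wildtype arrays for 15 of the 19 neutrophil members. These 3 genes were set apart after their values were seen, so this is a description with no test. Genotype differences were 0.21 (SE 0.57), 0.25 (SE 0.75) and -0.09 (SE 0.22), with limma adjusted p from 0.909 to 0.923. Without knockout replicate 4, Elane was 0.054 and Prtn3 -0.11, and Mpo was under the filter. Without wildtype replicate 2, Elane was 1.05 and Prtn3 0.23. Mpo was again under the filter, so no difference is given, and its remaining wildtype values were 7.01 and 6.99. At most 2 arrays of each gene lay above the background line.

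Promoters of 5 granule genes are shown, 3 highest in knockout replicate 4 and 2 highest in wildtype replicate 2. The sequences are the 250 bases before the annotated start, from RefSeq (GRCm38.p6), written 5′ to 3′ on the gene's strand, and 29 of the 33 members, Ly6g included, had an entry. Capitals mark each match to TTGCNNAA or its reverse complement TTNNGCAA, a core of sites bound by C/EBP factors, and each match to GAGGAA or its reverse complement TTCCTC, a core of PU.1 sites. Both strands were searched, and no matches of the 2 motifs overlapped. Of these 5, Ltf and Lcn2 held both motifs, Ngp the first only, and Elane and Prtn3 the second only. The 5 are examples and do not stand for all granule genes. Camp, also highest in knockout replicate 4, held neither motif and is not shown.
Ngp (chr9:110419558-110419807, plus strand): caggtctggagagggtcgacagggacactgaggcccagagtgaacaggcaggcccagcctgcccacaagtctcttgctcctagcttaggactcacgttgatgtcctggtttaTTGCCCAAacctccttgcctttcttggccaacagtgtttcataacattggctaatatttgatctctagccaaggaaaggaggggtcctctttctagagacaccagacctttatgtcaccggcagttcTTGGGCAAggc
Ltf (chr9:111019042-111019291, plus strand): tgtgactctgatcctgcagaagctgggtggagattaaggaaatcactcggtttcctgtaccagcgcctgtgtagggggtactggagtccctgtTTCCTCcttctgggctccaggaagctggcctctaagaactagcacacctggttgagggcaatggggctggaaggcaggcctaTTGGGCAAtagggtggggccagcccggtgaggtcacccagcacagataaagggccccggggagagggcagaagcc
Lcn2 (chr2:32387740-32387989, minus strand): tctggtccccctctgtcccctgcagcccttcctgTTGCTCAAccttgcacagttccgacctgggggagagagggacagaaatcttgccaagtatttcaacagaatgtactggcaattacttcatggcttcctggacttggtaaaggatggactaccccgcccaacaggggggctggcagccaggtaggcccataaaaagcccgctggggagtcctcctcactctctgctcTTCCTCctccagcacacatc
Elane (chr10:79886062-79886311, plus strand): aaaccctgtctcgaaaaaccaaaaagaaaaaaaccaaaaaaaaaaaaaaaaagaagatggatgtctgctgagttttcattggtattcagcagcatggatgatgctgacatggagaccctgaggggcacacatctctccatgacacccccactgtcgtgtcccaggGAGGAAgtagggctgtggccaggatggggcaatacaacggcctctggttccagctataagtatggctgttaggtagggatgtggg
Prtn3 (chr10:79879417-79879666, plus strand): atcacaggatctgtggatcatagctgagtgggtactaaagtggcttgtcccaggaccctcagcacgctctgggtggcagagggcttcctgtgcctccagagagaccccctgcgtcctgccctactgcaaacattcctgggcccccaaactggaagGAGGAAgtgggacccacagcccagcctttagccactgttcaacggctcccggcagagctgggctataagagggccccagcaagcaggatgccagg

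TTGCNNAA was found in 7 of 18 neutrophil member promoters (38.9%) and 1 of 11 monocyte member promoters (9.09%), against 9.55% of all 27025 promoters of this length. The 7 were S100a9, Ngp, Ltf, Lcn2, Mmp8, Retnlg and Ly6g. The 11 without it were Elane, Mpo, Prtn3 and Csf3r, and also S100a8, Camp, Chil3, Cxcr2, Il1r2, Cd177 and Ltb4r1, which were highest in knockout replicate 4. In Ngp the matches began 138 and 11 bases before the start, in Ltf 75, and in Lcn2 216. GAGGAA was found in 12 of 18 neutrophil (66.7%) and 4 of 11 monocyte member promoters (36.4%), against 23.1% of all promoters, and Ltf (157 bases before the start), Lcn2 (20 bases), Elane (85 bases), Mpo and Prtn3 (95 bases) were among those that held it. The motifs were picked as binding cores of factors known in myeloid cells, with the members already chosen. A match describes letters and shows no binding.

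The secreted products Retnlg and Chil3 were also highest in knockout replicates 4 and 3. Retnlg, a resistin-like cytokine of mouse neutrophils, was 10.06, 10.17 and 9.31 on the wildtype arrays, against 9.58, 10.26, 11.19 and 11.89 on the knockout arrays (difference 0.88, SE 0.46, limma adjusted p = 0.478). Chil3, the chitinase-like protein Ym1 made by neutrophils and by activated macrophages, was 7.77, 8.80 and 7.27 on the wildtype arrays, against 8.16, 8.65, 9.36 and 10.29 on the knockout arrays. Its difference was 1.17 (SE 0.47, limma adjusted p = 0.386), the largest among the members. It was 0.78 without knockout replicate 4, and that of Retnlg was then 0.50. Wildtype replicate 2 lay above knockout replicates 1 and 2 for Chil3, and 1 array of the 7 was above the background line.

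Among surface proteins, Cxcr2, the receptor for neutrophil-attracting chemokines, was 8.26, 8.88 and 8.55 on the wildtype arrays, against 8.28, 8.57, 9.25 and 10.46 on the knockout arrays. Il1r2, a decoy receptor for interleukin-1, was 8.11, 8.28 and 7.99 on the wildtype arrays, against 7.76, 8.32, 8.51 and 9.62 on the knockout arrays. Cd177, a surface glycoprotein of neutrophils, was 8.89, 8.97 and 8.47 on the wildtype arrays, against 8.69, 8.43, 9.21 and 9.96 on the knockout arrays. For these 3 receptors and surface proteins, knockout replicate 4 was the only array above the background line. The differences of Cxcr2, Il1r2 and Cd177 were 0.58, 0.42 and 0.30, with limma adjusted p from 0.611 to 0.736. They were 0.14, 0.067 and -0.0010 without knockout replicate 4. Ltb4r1, the leukotriene B4 receptor, ran from 5.63 to 7.16, stayed within the 38th to 66th percentile of the negative control probe sets and was not tested; its difference was 0.39 with all arrays and 0.12 without knockout replicate 4. Csf3r, the receptor for granulocyte colony-stimulating factor, which microglia also express, had another pattern. It was 12.64, 12.32 and 12.43 on the wildtype arrays, against 12.29, 12.18, 12.22 and 12.41 on the knockout arrays, a range of 0.46 over the 7 arrays, equal to the median over all named genes. Its difference was -0.19 (SE 0.11, limma adjusted p = 0.519), and -0.24 without knockout replicate 4.

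**Figure D3:**
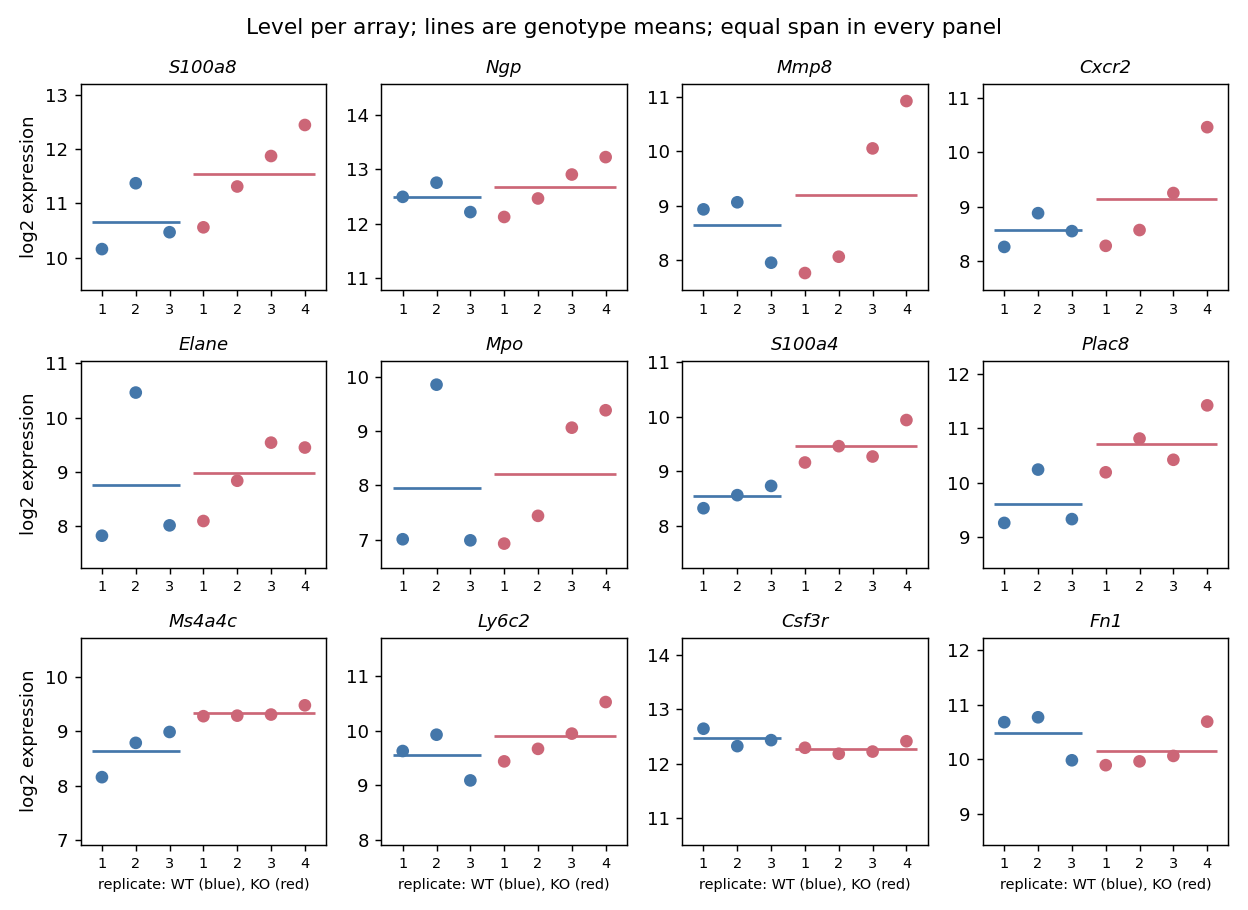
Points are log2 levels per array for 12 members, wildtype blue and knockout red by replicate number, with lines at the genotype means and the same vertical span in each panel. S100a4 and Ms4a4c do not overlap, 2 of 30 tested members, against 7.10% of all tested genes higher without overlap; Elane and Mpo are highest in wildtype replicate 2, and Csf3r is nearly level.

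S100a4 and Ms4a4c were the members without overlap between genotypes, 2 of 30 tested, where 7.10% of all tested genes were higher and 3.80% lower in knockout arrays without overlap. S100a4, a calcium-binding protein of motile leukocytes, was 8.32, 8.56 and 8.73 on the wildtype arrays, against 9.16, 9.46, 9.27 and 9.94 on the knockout arrays. The lowest knockout value was above the highest wildtype value, with a difference of 0.92 (SE 0.18, 95% confidence interval 0.52 to 1.32, limma adjusted p = 0.232). Ms4a4c, a membrane protein of the MS4A family found on monocytes, was 8.16, 8.79 and 8.99 on the wildtype arrays, against 9.28, 9.29, 9.31 and 9.48 on the knockout arrays. Its genotypes did not overlap either, with a difference of 0.69 (SE 0.17, 95% confidence interval 0.31 to 1.08, limma adjusted p = 0.315), and it was 0.45 without wildtype replicate 1. The 4 knockout values of Ms4a4c spanned 0.21, where those of S100a4 spanned 0.77. All values of Ms4a4c lay below the background line, and 2 arrays of S100a4 lay above it.

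S100a6 and Plac8 overlapped through 1 wildtype array each. S100a6 lay above the background line on 1 array, knockout replicate 4, and Plac8 on 5 arrays. S100a6, calcyclin, was 7.88, 8.73 and 8.03 on the wildtype arrays, against 8.58, 9.27, 9.10 and 9.84 on the knockout arrays (difference 0.98, SE 0.28, limma adjusted p = 0.315). Plac8, a small cysteine-rich protein of immune cells, was 9.26, 10.24 and 9.33 on the wildtype arrays, against 10.19, 10.81, 10.42 and 11.42 on the knockout arrays (difference 1.105, SE 0.30, limma adjusted p = 0.315). In both genes wildtype replicate 2 exceeded knockout replicate 1, and wildtype replicate 2 was also the highest wildtype array for each neutrophil member except Csf3r. To set these genes beside the neutrophil level, the mean of the 19 neutrophil members on each array was added to the model as a covariate, an alternative chosen after seeing the data. The difference was then 0.79 for S100a4 (limma adjusted p = 0.221), 0.67 for S100a6 (adjusted p = 0.232), 0.79 for Plac8 (adjusted p = 0.251) and 0.64 for Ms4a4c (adjusted p = 0.260). In the same fit Itgal was 0.40, Ccr2 0.25, Ly6c2 0.046, F13a1 0.032 and F10 -0.0039. Itga4 was -0.19, Vcan -0.082, Nr1d1 -0.24 and Fn1 -0.55, so the median over the 13 monocyte members was 0.046. The covariate took in Elane, Mpo and Prtn3, highest in wildtype replicate 2, and the nearly level Csf3r, so it is a rough guide. Whether S100a4, S100a6, Plac8 and Ms4a4c vary apart from neutrophil content was not tested. Without knockout replicate 4, S100a4, S100a6, Plac8 and Ms4a4c differed by 0.76, 0.77, 0.87 and 0.64. Without knockout replicates 3 and 4, also chosen after seeing the data, S100a4, S100a6, Plac8 and Ms4a4c differed by 0.77, 0.71, 0.89 and 0.63, and S100a8 by 0.27.

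Ly6c2 and Ccr2, which define classical monocytes, had overlapping genotypes. Ly6c2 was 9.63, 9.93 and 9.09 on the wildtype arrays, against 9.44, 9.67, 9.95 and 10.53 on the knockout arrays (difference 0.35, SE 0.26, limma adjusted p = 0.619). Without knockout replicate 4 its difference was 0.13, and without wildtype replicate 3 it was 0.12. Its close relative Ly6c1, a marker of brain endothelium as well, was 11.11, 11.37 and 10.41 on the wildtype arrays, against 10.68, 10.78, 10.79 and 10.92 on the knockout arrays. Probe sequences were not analysed here, so shared signal between the 2 genes was not tested. Ccr2, the receptor for the monocyte chemokine Ccl2, was 6.81, 7.13 and 7.31 on the wildtype arrays, against 6.99, 7.44, 7.58 and 8.51 on the knockout arrays, and was not among the tested genes because only 1 array lay above the filter. Knockout replicate 4 was highest for both Ly6c2 and Ccr2, and the Ccr2 difference was 0.55 with all arrays and 0.25 without it. All values of Ccr2 lay below the background line.

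Integrins, clotting factors and matrix genes did not share 1 pattern. Itgal, the alpha chain of LFA-1, was 9.02, 8.48 and 8.72 on the wildtype arrays, against 8.91, 9.37, 8.88 and 9.75 on the knockout arrays (difference 0.49, SE 0.21, limma adjusted p = 0.407, and 0.31 without knockout replicate 4). Itga4, the alpha chain of VLA-4, was 8.51, 8.70 and 8.40 on the wildtype arrays, against 8.29, 8.39, 8.38 and 8.97 on the knockout arrays (difference -0.03, SE 0.16, and -0.18 without knockout replicate 4). Vcan, a matrix proteoglycan made by monocytes, F13a1, a subunit of clotting factor XIII, and F10, clotting factor X, had ranges of 0.45, 0.68 and 0.29 over the 7 arrays and differences of -0.01, 0.17 and 0.07. These were -0.11, 0.069 and 0.036 without knockout replicate 4. All values of Itga4, Vcan, F13a1 and F10 lay below the background line, and Itgal lay above it on 1 array. Fn1, fibronectin, was 10.68, 10.77 and 9.98 on the wildtype arrays, against 9.89, 9.96, 10.06 and 10.69 on the knockout arrays (difference -0.32, SE 0.23, limma adjusted p = 0.598, and -0.50 without knockout replicate 4). Fn1 was high in wildtype replicates 1 and 2, as was the mean level of the 11 measured of 12 endothelial markers. That mean ran from 9.17 to 9.91 across wildtype and from 9.19 to 9.36 across knockout arrays. Fn1 was also high in knockout replicate 4, where the endothelial mean was 9.19, and the part of either cell type in Fn1 was not tested.

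Nr1d1, a nuclear receptor that represses genes in the circadian clock, was listed with the monocyte members but had a range of 0.44, close to the median over all named genes. It was 8.91, 9.09 and 9.07 on the wildtype arrays, against 8.81, 8.79, 8.67 and 9.11 on the knockout arrays (difference -0.18, SE 0.12, limma adjusted p = 0.574, and -0.27 without knockout replicate 4). Of 16 clock genes measured, Nr1d1 included, 12 were tested and none passed in limma. At an unadjusted p under 0.05, 1 clock gene was higher and 1 lower, where 8.39% of all tested genes were higher and 3.54% lower. The clock genes were Dbp at 0.34 (SE 0.14) and Arntl, whose product drives Nr1d1 transcription, at -0.32 (SE 0.14). All values of Nr1d1 and Arntl lay below the background line.

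The genotype comparison asked whether B2m loss went with other levels of these markers. Of the 30 members that passed the filter on dim genes, 0 passed at an adjusted p under 0.05 in limma, where 0.05% of all 10004 tested genes did. At an unadjusted p under 0.05, 7 members were higher and 0 lower in knockout arrays, where 8.39% of all tested genes were higher and 3.54% lower. The 7 were S100a4, S100a6, Plac8, Ms4a4c and Itgal among the monocyte members, and Camp and Chil3 among the neutrophil members. The 2 of 30 members without overlap, S100a4 and Ms4a4c, were a share near that of all tested genes. Over the 19 measured neutrophil members the median difference was 0.42, with 17 above 0, and over the 13 monocyte members it was 0.35, with 9 above 0. The median over all named genes was -0.03. Without knockout replicate 4 the medians were 0.09 and 0.13, and without knockout replicates 3 and 4 they were -0.13 and 0.00092.

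**Figure D4:**
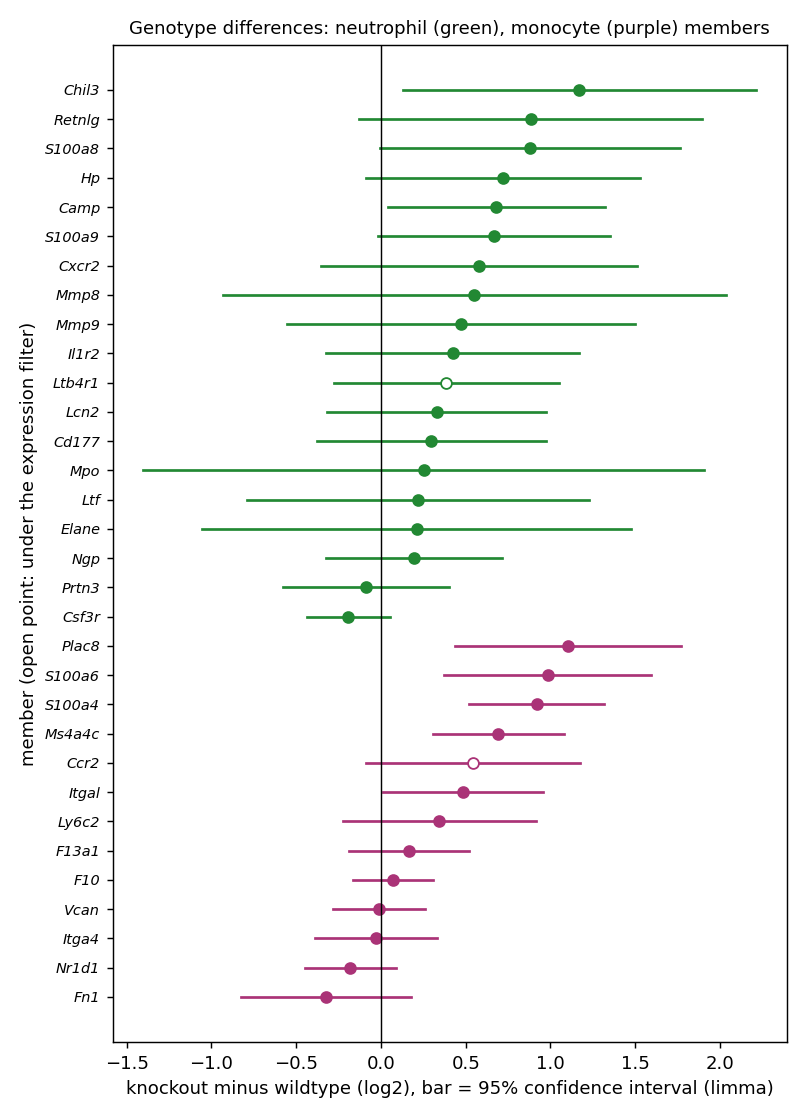
Points are knockout minus wildtype differences (log2) of the 32 measured members with 95% confidence intervals from limma, neutrophil members in green and monocyte members in purple; the open points, Ltb4r1 and Ccr2, were under the filter. Intervals of S100a4, Ms4a4c, S100a6, Plac8, Itgal, Camp and Chil3 lie above 0, the other intervals span 0, and no member passed after adjustment over all tested genes.

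**Figure D5:**
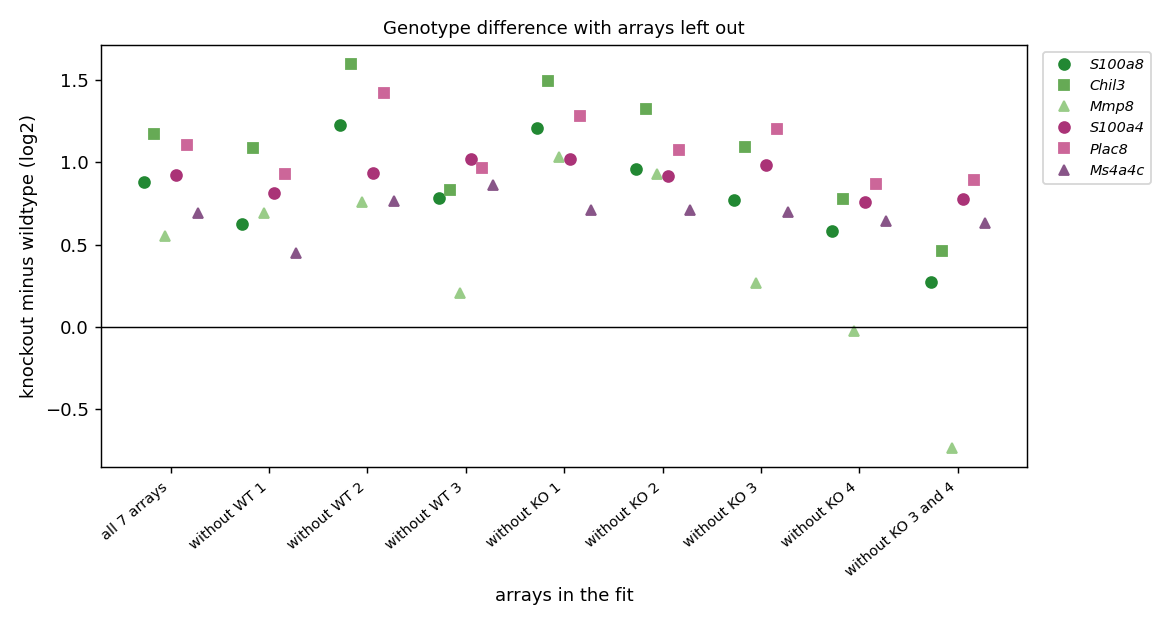
Points give the difference (log2) of 6 members in fits with all 7 arrays, with each array left out in turn, and without knockout replicates 3 and 4. In the fits drawn, S100a4, Plac8 and Ms4a4c lie between 0.45 and 1.42, while Mmp8 moves from 1.03 without knockout replicate 1 to -0.74 without knockout replicates 3 and 4.

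Of the 13 tested other neutrophil genes 0 passed in limma and 2, Padi4, which citrullinates histones, and Wfdc21, were higher at an unadjusted p under 0.05, with a median difference of 0.40 over the tested genes and 0.255 over the 23 measured. At that threshold 8.39% of all tested genes were higher and 3.54% lower, the shares to set beside each count that follows. Of the 16 tested other monocyte genes 0 passed and 7 were higher at an unadjusted p under 0.05, with a median of 0.29 over the tested and 0.28 over the 21 measured genes. These included the transcription factor Klf2 at 0.44 (SE 0.17), the lysozyme gene Lyz2, which microglia also express, at 0.31 (SE 0.12), Crip1 at 0.34 (SE 0.14) and the antiviral membrane protein Ifitm3 at 0.28 (SE 0.12). Klf2, Crip1 and Ifitm3 were highest in knockout replicate 2, and Lyz2 in knockout replicate 4. Crip1 and Ifitm3 did not overlap between genotypes, 2 of 16 tested, where 7.10% of all tested genes were higher without overlap. Knockout replicate 4 was highest for 17 of the 23 other neutrophil genes and 13 of the 21 other monocyte genes. The share over all named genes was 15.1%. How these lists differ without that array is not given here. Border-associated macrophage markers, which share F13a1 with the members, had a median difference of -0.12 over 11 tested genes and -0.07 over 12 measured genes, with 0 passing in limma and 1 lower at an unadjusted p under 0.05. That was Siglec1, a sialic acid receptor of macrophages, at -0.26 (SE 0.10). All values of Siglec1, and of Padi4 above, lay below the background line. Endothelial markers had a median of -0.35 over 10 tested and -0.43 over 11 measured genes, with 0 above 0, 4 lower at an unadjusted p under 0.05 and 0 passing in limma. Their mean level was 9.91 and 9.88 in wildtype replicates 1 and 2. It was 9.17 in wildtype replicate 3, below the 9.19 to 9.36 of the knockout arrays. Dendritic cell markers had a median of -0.07 over 8 measured genes, with 0 at an unadjusted p under 0.05 and 0 passing in limma.

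The S100 genes of chromosome 3, a cluster of small calcium-binding proteins, differed in which array was highest. In RefSeq gene order (GRCm38.p6), S100a6 lies 2 genes from S100a4, and S100a8 lies 2 genes from S100a6. S100a11, which is not a member, was 9.98, 10.19 and 9.49 on the wildtype arrays, against 9.59, 9.74, 10.57 and 11.42 on the knockout arrays, with knockout replicates 4 and 3 highest as for S100a8. S100a1 was 7.43, 7.69 and 8.16 on the wildtype arrays, against 8.50, 8.59, 8.35 and 8.15 on the knockout arrays (difference 0.64, SE 0.17, limma adjusted p = 0.315), and knockout replicate 4 was its lowest knockout value. All values of S100a1 lay below the background line. S100a13 was 9.88, 10.39 and 10.54 on the wildtype arrays, against 10.56, 10.76, 10.45 and 10.17 on the knockout arrays. The list of S100 genes was not limited to this cluster, since it holds S100b and lacks S100a2 of chromosome 3. Over the 13 S100 genes of the list, 9 were tested, 0 passed and 3 were higher at an unadjusted p under 0.05, where 8.39% of all tested genes were higher. Of these 3, S100a4 and S100a6 are members.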

How the data were processed

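RNA of 7 sorted samples was measured on Affymetrix gene arrays, 1 per sample. Per the submitters' processing notes, the authors used RMA and Affymetrix Expression Console 1.1, and the deposited values are log2 expression. A genome build is not given in the sources used here. Of 28846 rows, 19572 carried 1 gene symbol, 0 several and 9274 none. For 55 genes with several probe sets the brightest was kept, which left 19505 genes. The 10004 genes that exceeded the median named gene on 3 or more of 7 arrays were tested, knockout against wildtype, with limma 3.58.1 in R 4.3.3 (lmFit, eBayes) and Benjamini-Hochberg adjustment over all of them, called at an adjusted p under 0.05. Values of Ltb4r1 and Ccr2, under this filter, come from the fit without it. The 5222 negative control rows gave a guide to background. Differences of dim genes are understated on arrays. Precision is limited by how few arrays there are. The procedure was tested on simulated data. Alternatives were other filters, variance priors, array weights, normalizations and arrays left out. Members and lists were chosen with earlier results of these data known. Genes named are all members, B2m, Ly6c1, S100 relatives, and from each list up to 4 genes with the smallest p and up to 4 with the highest mean. Promoters were matched by symbol to RefSeq (GRCm38.p6).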

Additional observations from a re-analysis of the deposited data

Results flagged for a closer look

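In 2 of 101 genes checked, 1 knockout array lay far from the other 3, where chance gives about 1 in 20 such groups. Itga4 was 8.97 in knockout replicate 4, against 8.29 to 8.39 in the other knockout arrays and 8.40 to 8.70 in wildtype. Csf1r, the receptor that keeps microglia alive, was 13.36 in knockout replicate 4, against 13.28 to 13.29 in the other knockout arrays and 13.26 to 13.47 in wildtype.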

How the results depend on the processing

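Members passing in limma numbered 0 under each alternative that refitted all of them (the covariate fit gave monocyte members only, with adjusted p of 0.221 or more), and the lowest adjusted p of S100a4 and of Ms4a4c over them was 0.0935, without wildtype replicate 3. Calls over all genes (5) ranged from 2 to 22 with 1 array left out: 2 without wildtype replicate 1 or 2 and 22 without wildtype replicate 3. They numbered 2 without wildtype replicates 1 and 2, and 2 without wildtype replicate 1 and knockout replicate 4. Members at an unadjusted p under 0.05 (7) ranged from 5 to 14 with 1 array left out, 14 without knockout replicate 1, and numbered 4 without wildtype replicates 1 and 2. With 1 array left out, the neutrophil median difference ranged from 0.09 without knockout replicate 4 to 0.74 without wildtype replicate 2, and the monocyte median from 0.13 to 0.50. With 2 arrays left out, the neutrophil median was 0.78 without wildtype replicates 1 and 2, 0.057 without wildtype replicate 1 and knockout replicate 4, and -0.13 without knockout replicates 3 and 4; the monocyte median was 0.32 and 0.12 in the first 2 of these fits. Ms4a4c was 0.35 and 0.40 there, its lowest values, and Mmp8 reached 1.25 without wildtype replicates 1 and 2. The monocyte median was 0.00092 without knockout replicates 3 and 4 and 0.046 with the neutrophil level as covariate, both chosen after seeing the data. With array weights Elane was -0.035 and Mpo -0.019; Vcan was 0.0041 after repeated quantile normalization and 0.016 with centred arrays. Without wildtype replicates 1 and 2, Prtn3 was 0.19, Itga4 0.10, F13a1 -0.015 and Fn1 0.17. Without wildtype replicate 1 and knockout replicate 4, Ltf was -0.079, Elane -0.42, Cxcr2 -0.013, Ltb4r1 -0.056 and F13a1 -0.044. Without knockout replicates 3 and 4, 10 of 18 neutrophil members turned sign: Ngp -0.19, Ltf -0.51, Lcn2 -0.12, Mmp8 -0.74, Mmp9 -0.26, Elane -0.30, Cxcr2 -0.13, Il1r2 -0.090, Cd177 -0.22 and Ltb4r1 -0.062. F13a1 was then -0.043 and F10 -0.018, and F10 was -0.0039 with the covariate. With 1 array left out, these ranged Elane -0.26 to 1.05, Mpo -0.23 to 0.68, Prtn3 -0.26 to 0.23, Itga4 -0.18 to 0.051, Vcan -0.11 to 0.039, Ltf -0.17 to 0.67, Mmp8 -0.023 to 1.03, Cd177 -0.0010 to 0.51. Mpo was under the filter without wildtype replicate 2, knockout replicate 3 or knockout replicate 4. Its range leaves those fits out and can understate how far it moved. The causes were not tested. No paired analysis was possible because the labels carry no replicate numbers; those used here follow deposit order. Dim members near the negative control rows are limited by signal over background.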
